A study of Homo sapiens with 3 samples.

Results

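The genes described here are 10 non-coding host genes of small nucleolar RNAs: SNHG1, SNHG5, SNHG6, SNHG7, SNHG8, SNHG12, SNHG15, SNHG16, SNHG25 and GAS5. They are 10 of 26562 genes and unnamed accessions in the deposited tables, and all 10 are among the 3889 with a mean of at least 1 FPKM (fragments per transcript length and per depth of the library) that entered the comparison. The members were chosen by name with their values in the same comparison already known, so those values are given as a description with no test. The cells were MTAC-P, human lung cancer cells that descend from the PC9 line and resist EGFR tyrosine kinase inhibitors, grown in DMEM with serum. The control (1 library) carries a knockdown hairpin whose title names luciferase. The other group is labelled with hairpins against BCAT1, the cytosolic branched-chain aminotransferase (2 libraries, labelled shBCAT1 1 and shBCAT1 2 and called so here). BCAT1, the targeted gene, was at 0.213 FPKM in the control (bounds 0.129 to 0.297), 1.055 in shBCAT1 1 (0.835 to 1.27) and 0.241 in shBCAT1 2 (0.158 to 0.325). The library labelled shBCAT1 1 thus goes against its label, the bounds of the other overlap the control, and every direction in the text compares libraries by their labels. The labels do not say whether these 2 libraries share a hairpin or a culture, so the spread between them may be technical.

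Host genes of this kind are transcribed and spliced like messenger RNAs, but most of them make no known protein. The small nucleolar RNAs lie in their introns and are trimmed out of the removed introns. Those of the box C/D class guide methylation of ribosomal RNA and those of the H/ACA class guide the change of uridine to pseudouridine. The spliced host RNA is often short-lived because translating ribosomes expose it to nonsense-mediated decay. Many host genes start, as ribosomal protein genes do, with a C followed by a run of C and T, the 5′ terminal oligopyrimidine (TOP) start, which places translation of the RNA under control of the growth kinase mTORC1.

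The start sequences are shown because they are the feature that the host genes share with ribosomal protein genes, the group set beside them further on. For 6 members the 50 bases around the start are taken from RefSeq (GRCh38.p14), with 25 bases before the first transcribed base and 25 from it on. For GAS5 the first 50 bases, and for SNHG25 the whole spliced transcript, are taken from GENCODE release 29 (GRCh38). All are written 5′ to 3′ on the strand of the gene, and capitals mark CTTTC or CTTTT, the only motifs marked. Runs of 6 or more C or T were counted too and are not marked.
SNHG1: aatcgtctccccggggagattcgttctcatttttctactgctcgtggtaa
SNHG5: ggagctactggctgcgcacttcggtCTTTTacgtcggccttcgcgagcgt
SNHG7: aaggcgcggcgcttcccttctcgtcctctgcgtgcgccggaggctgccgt
SNHG8: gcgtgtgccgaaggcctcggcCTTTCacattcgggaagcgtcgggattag
SNHG12: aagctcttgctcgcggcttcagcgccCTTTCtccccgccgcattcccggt
SNHG16: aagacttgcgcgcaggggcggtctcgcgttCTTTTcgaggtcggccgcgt
GAS5: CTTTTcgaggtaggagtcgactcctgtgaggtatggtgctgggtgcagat
SNHG25: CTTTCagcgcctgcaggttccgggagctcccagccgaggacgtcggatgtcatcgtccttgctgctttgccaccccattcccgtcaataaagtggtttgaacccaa

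In SNHG5 the motif begins at the first transcribed base (chr6:85678709-85678758, minus strand). In SNHG12 it begins at base 2 (chr1:28581849-28581898, minus strand), in SNHG16 at base 6 (chr17:76557739-76557788, plus strand) and in SNHG8 at base -4, before the annotated start (chr4:118278737-118278786, plus strand). The windows of SNHG1 (chr11:62855861-62855910, minus strand) and SNHG7 (chr9:136728160-136728209, minus strand) hold neither motif. The RefSeq promoter table had an entry for 7 members, and 4 of the 7 windows of 50 bases held a motif on the strand of the gene, beside 11.8% of all 35116 promoters and 71.8% of those of 78 ribosomal protein genes. On the opposite strand the counts were 0 of the 7, 9.42% of all promoters and 8.97% of the ribosomal protein genes. A run of 6 or more C or T lay in 6 of the 7 windows. The share was 44.6% of all promoters and 92.3% of the ribosomal protein genes. The seventh entry, that of GAS5, starts upstream of the deposited transcript, which is why GENCODE was used for it. The RefSeq start of SNHG12, at 28581873, also lies upstream of its deposited transcript, which reaches 28581854 on the minus strand. The SNHG12 motif thus lies outside the deposited transcript, and its window was kept in the count.

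By the transcript ends of GENCODE, 6 of the 10 members had at least 1 transcript whose first 5 bases were CTTTC or CTTTT: SNHG5, SNHG6, SNHG8, SNHG16, SNHG25 and GAS5. The share was 1.35% of 57133 genes of GENCODE and 34.6% of 78 ribosomal protein genes. These shares do not allow for the number of annotated transcripts, and a gene with many has more chances to count. Such a start was found in 6 of 29 annotated transcripts of GAS5, 3 of 23 of SNHG5, 2 of 8 of SNHG16, 3 of 5 of SNHG6, 1 of 5 of SNHG8 and 2 of 2 of SNHG25. It was found in 0 of 25 of SNHG1, 0 of 17 of SNHG12, 0 of 10 of SNHG15 and 0 of 4 of SNHG7. The GAS5 transcript printed above starts at position 173867989 of chromosome 1, and the deposited GAS5 entry ends at 173867987, so that it begins 2 bases further in. A match describes these letters only.

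**Figure D1:**
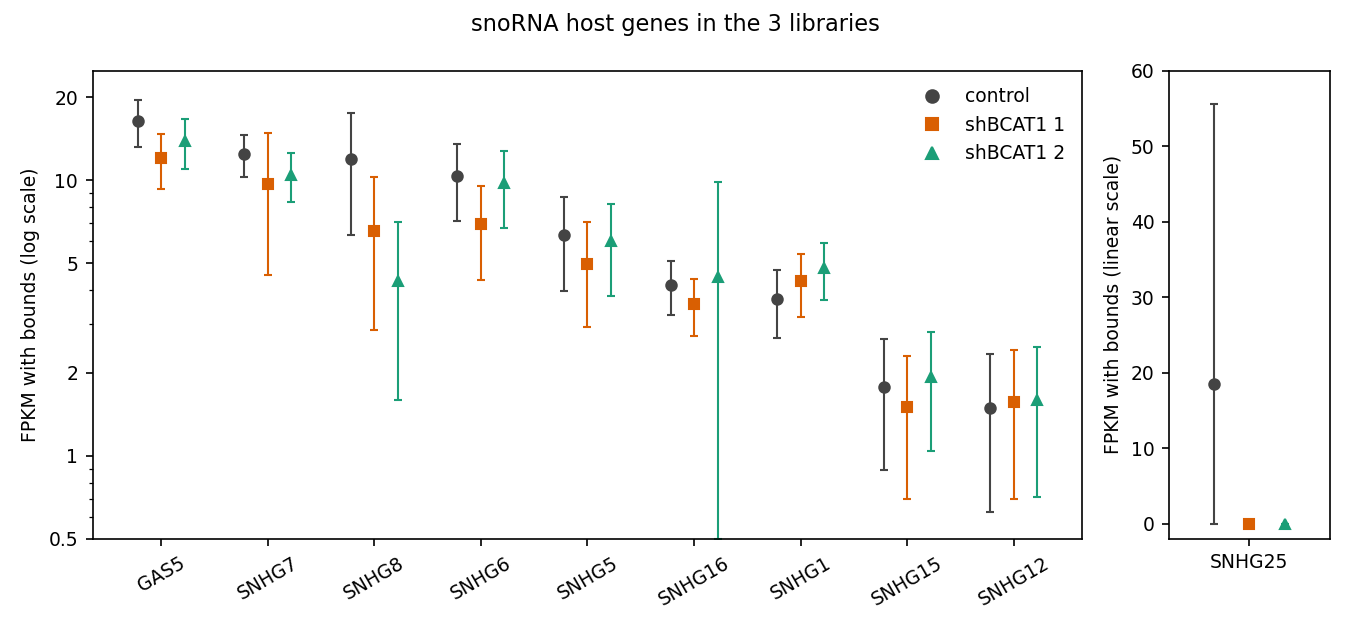
FPKM of 9 host genes on a log axis (left) and of SNHG25 on a linear axis (right). Points are the 3 libraries and bars the confidence bounds, 2 SDs to each side, cut at 0.5 FPKM for SNHG16 in shBCAT1 2. Bars of SNHG7, SNHG8 and SNHG16 combine those of their transcript entries. The control bounds overlap those of both other libraries for all 10 genes.

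FPKM is compared between genes here because it is scaled to transcript length. GAS5, an RNA named for its rise in growth-arrested cells, was the highest member other than SNHG25 in the control, with SNHG7, SNHG8, SNHG6 and SNHG5 behind it. SNHG16, SNHG1, SNHG15 and SNHG12 followed in that order. The bounds of each gene overlapped those of its neighbour in this order, except between SNHG1 and SNHG15. By rank in the control GAS5 stood 380th of 3889 genes and SNHG12 2904th.

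Values were lower in both libraries labelled shBCAT1 for 6 of the 10 members (SNHG5, SNHG6, SNHG7, SNHG8, SNHG25 and GAS5), higher in both for SNHG1 and SNHG12, and of opposite sign for SNHG15 and SNHG16. Of all genes tested 43.7% were lower in both and 25.6% higher in both. Of the 1042 genes with a mean of 5 FPKM or more, 64.4% were lower and 12.2% higher in both, and all 6 lower members have such a mean. In these cultures, fewer cells with an RNA and less RNA per cell cannot be told apart. The bounds of the control overlapped those of both other libraries for all 10 members, while 4.17% of all genes lay below the control with bounds apart in both libraries, 7.61% in shBCAT1 1 alone or with the other and 7.66% in shBCAT1 2, and 1.26% lay above it with bounds apart in both. With 1 added to FPKM, 1 member, SNHG25, lay below the control by a factor of 2 in both, against 0.411% of all genes. Above it by that factor lay 0 members, against 0.0514%. SNHG25 was at 18.5 FPKM in the control (bounds 0 to 55.6) and at 0 in both others. It reached the minimum means of 1 and 5 FPKM through the control value alone. Its place among the 6 lower members and in this count followed from that. The median fitted log2(FPKM + 1) difference over the members was -0.23 (-0.31 in shBCAT1 1 and -0.07 in shBCAT1 2), beside -0.06 over all genes. The members' median was -0.041 with quantile normalization, where SNHG5, SNHG6 and GAS5 were lower in 1 library only, which left SNHG7, SNHG8 and SNHG25 lower in both. In that setting 32.2% of all genes were lower and 38.1% higher in both, and with median-of-ratios scaling 36.8% and 35.8%.

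Read from the bounds, the fragments behind a control value ranged from 1 for SNHG25 to 131 for SNHG7. The number of fragments that would give bounds of the deposited width, called equivalent fragments here, was at least 10 in every library for 8 members. Equivalent fragments were under 10 for SNHG16 in shBCAT1 2, at 2.78, and for SNHG25. SNHG16 stood at 79.8 in the control at a like FPKM, so for such sums the figure is not a count of fragments. Relative to the control, depth read this way was 1.03 in shBCAT1 1 and 1.09 in shBCAT1 2. Bounds and equivalent fragments cover counting and assignment error within a library and no spread between libraries.

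GAS5 (chromosome 1, 173863901 to 173867987, hg38) had a control value of 16.4 FPKM (bounds 13.2 to 19.6), followed by 12.01 in shBCAT1 1 (9.27 to 14.8) and 13.9 in shBCAT1 2 (11.01 to 16.7). Both libraries labelled shBCAT1 lay below the control and their ranges overlapped it. These values stood for 106, 76.8 and 95.1 equivalent fragments. Divided by its own counting error, the difference from the control was -2.09 in shBCAT1 1 and -1.20 in shBCAT1 2. The mean of both was 12.93 ± 1.299 FPKM (SD, n = 2). On the log2(FPKM + 1) scale the fitted difference came to -0.32 ± 0.20 (SE). That difference was -0.055 with quantile normalization and 0.066 with the trend over transcript length removed.

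SNHG8 (chromosome 4, 118278762 to 118279823) differed most from the control among the members with more than 1 fragment. Its control value of 11.9 FPKM (bounds 6.34 to 17.5) stands beside 6.56 in shBCAT1 1 (2.86 to 10.3) and 4.31 in shBCAT1 2 (1.59 to 7.03). The value in shBCAT1 2 lay below the lower bound of the control and that in shBCAT1 1 just above it, while the bounds overlapped in each. They were 45.0% and 63.9% below the control, differences of -1.601 and -2.45 counting errors, and the values rested on 18.2, 12.6 and 10.1 equivalent fragments. The fitted log2(FPKM + 1) difference was -1.03 ± 0.29 (SE). It kept its sign under all 10 fitted alternatives and ranged from -1.15 to -0.22, the weakest being the value for the largest transcript entry alone.

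SNHG6, a gene on chromosome 8, was at 10.4 FPKM in the control (bounds 7.13 to 13.6), 6.94 in shBCAT1 1 (4.36 to 9.51) and 9.73 in shBCAT1 2 (6.73 to 12.7). The value in shBCAT1 1 was the lowest of the 3, a difference of -1.66 counting errors, and that in shBCAT1 2 was close to the control. SNHG5 (chromosome 6, 85677007 to 85678733), host of SNORD50A and SNORD50B, had 6.33 FPKM in the control (3.98 to 8.68), 4.98 in shBCAT1 1 (2.92 to 7.03) and 6.01 in shBCAT1 2 (3.82 to 8.20). Its 3 ranges overlapped widely, and the larger of the differences was -0.867 counting errors. The fitted log2(FPKM + 1) differences were -0.30 ± 0.27 (SE) for SNHG6 and -0.18 ± 0.21 for SNHG5. They were 0.090 and 0.30 with the length trend removed.

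SNHG7 (chromosome 9, 136724594 to 136728184), host of SNORA17A and SNORA17B, had 12.4 FPKM in the control (bounds 10.3 to 14.6), 9.67 in shBCAT1 1 (4.53 to 14.8) and 10.4 in shBCAT1 2 (8.37 to 12.5). Both were lower in value by 22.3% and 16.1%, within overlapping bounds, with a fitted log2(FPKM + 1) difference of -0.28 ± 0.19 (SE). Over the 10 fitted alternatives it kept its sign and ranged from -0.65 to -0.039. The gene sum covers transcripts that differed from the control in opposite directions.

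SNHG1 (chromosome 11, 62851988 to 62855888), host of 8 box C/D RNAs, differed in the other direction. It had 3.70 FPKM in the control (bounds 2.67 to 4.74), 4.30 in shBCAT1 1 (3.20 to 5.40) and 4.80 in shBCAT1 2 (3.67 to 5.93). Both libraries labelled shBCAT1 were above the control in value, by 0.786 and 1.43 counting errors, and their bounds overlapped it. In equivalent fragments this was 51, 61 and 72. The fitted log2(FPKM + 1) difference was 0.24 ± 0.20 (SE) and was positive under all 9 fitted alternatives, from 0.13 to 0.36.

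SNHG12 (chromosome 1, 28578538 to 28581854) had 1.49 FPKM in the control (bounds 0.629 to 2.35), 1.56 in shBCAT1 1 (0.696 to 2.43) and 1.59 in shBCAT1 2 (0.711 to 2.47), on 12, 13 and 13.1 equivalent fragments. Its values in the 3 libraries lay within the bounds of each other. SNHG15 (chromosome 7, 44983028 to 44986660) was at 1.77 (0.886 to 2.66), 1.504 (0.7 to 2.31) and 1.93 FPKM (1.045 to 2.82), lower in shBCAT1 1 and higher in shBCAT1 2. SNHG16 (chromosome 17, 76557764 to 76565348) was at 4.17 (3.24 to 5.10), 3.56 (2.72 to 4.398) and 4.47 FPKM (0 to 9.82), also on either side of the control. The fitted log2(FPKM + 1) differences of these 3 genes were 0.05 ± 0.17, -0.03 ± 0.20 and -0.05 ± 0.22 (SE). Those of SNHG15 and SNHG16 changed sign with median-of-ratios scaling, to 0.013 and 0.0089. That of SNHG15 was 0.21 with the length trend removed, and that of SNHG16 was 0.060 with quantile normalization.

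SNHG25 (chromosome 17, 64145970 to 64146309) was listed at 18.5 FPKM in the control with bounds of 0 to 55.6, and at 0 in both libraries labelled shBCAT1. By value it headed the members in the control. It was the only member called by limma, at an adjusted p under 0.05 in the fit over all genes (14 genes called lower, 0.36%, and 0 called higher, 0.0%). The call is given as part of that fit and not as a test of a member chosen with its values known. At an unadjusted p under 0.05 limma gave 193 genes lower and 25 higher. By its bounds the control value of SNHG25 was 1 equivalent fragment. All 14 genes called were listed at 0 in both libraries, and the residual spread of such a gene is 0. By limma 0 genes were called without a filter on low values, and 0 among genes with at least 10 equivalent fragments in the control. Among the genes tested, 14 were listed at 0 in both libraries labelled shBCAT1 and 14 at 0 in the control. The whole transcript printed above has 106 bases in 2 exons.

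**Figure D2:**
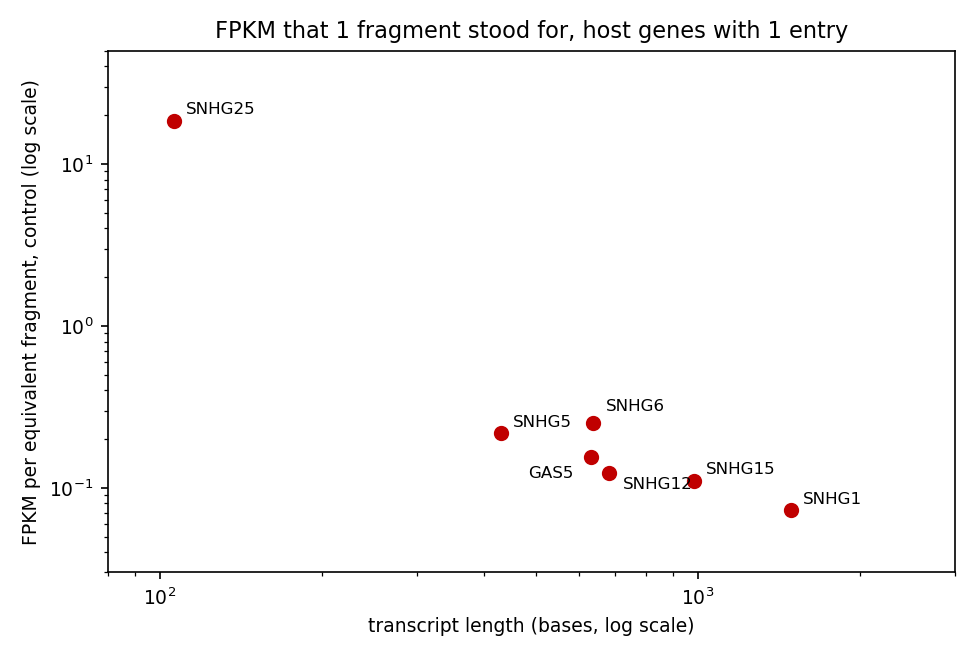
FPKM that 1 equivalent fragment stood for in the control, against transcript length, both on log axes, for the 7 host genes with a single transcript entry. SNHG25 stands at 18.5 FPKM per fragment and the other 6 between 0.0726 and 0.251.

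The plot of FPKM per fragment shows how unequal the scale is at short lengths. For SNHG25 1 fragment was worth 18.5 FPKM, for SNHG5 (430 bases) 0.218, for GAS5 (632 bases) 0.155, for SNHG6 (638 bases) 0.251, for SNHG12 (682 bases) 0.124, for SNHG15 (982 bases) 0.111 and for SNHG1 (1487 bases) 0.0726. The order is not that of length alone, since SNHG6 stands above the shorter SNHG5 and GAS5. The level of SNHG25 can therefore not be ranked beside the other members, and its difference from the other libraries is that of 1 fragment. Its fitted log2(FPKM + 1) difference of -4.29 depends on the pseudocount, being -7.54 with 0.1 and -2.23 with 5, and no fold change is given against values listed at 0.

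The members SNHG7, SNHG8 and SNHG16 had more than 1 transcript entry each, and 17 entries made up the 10 genes. In SNHG7 the entry NR_024542 (matched to a spliced GENCODE transcript of 789 bases in 5 exons) held 10.7 FPKM in the control (bounds 8.74 to 12.7), 6.98 in shBCAT1 1 (3.64 to 10.3) and 6.06 in shBCAT1 2 (4.48 to 7.64). It lay below the control in both, with bounds apart in shBCAT1 2. The entry NR_003672 (2157 bases in 2 exons, with SNORA17A and SNORA17B inside an exon) was at 1.004 (0.574 to 1.43), 1.44 (0.975 to 1.91) and 2.06 FPKM (1.52 to 2.60), above the control in both and with bounds apart in shBCAT1 2. The entry NR_024543, which GENCODE matches to the same 789-base transcript, was at 0.695, 1.25 and 2.31 FPKM, with bounds that overlapped those of the control. NR_024542 thus made up 86.4% of the summed SNHG7 value in the control, 72.2% in shBCAT1 1 and 58.1% in shBCAT1 2. Of 4077 transcript entries with a mean of at least 1 FPKM, 11.6% were lower and 10.3% higher than the control with bounds apart in shBCAT1 2, and 11.9% and 4.59% in shBCAT1 1. NR_024542 and NR_024543 are matched to the same transcript, while NR_003672, at 2157 bases against 789, holds mostly sequence that the other 2 lack. How the authors' software divided fragments between the 3 entries was not tested.

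**Figure D3:**
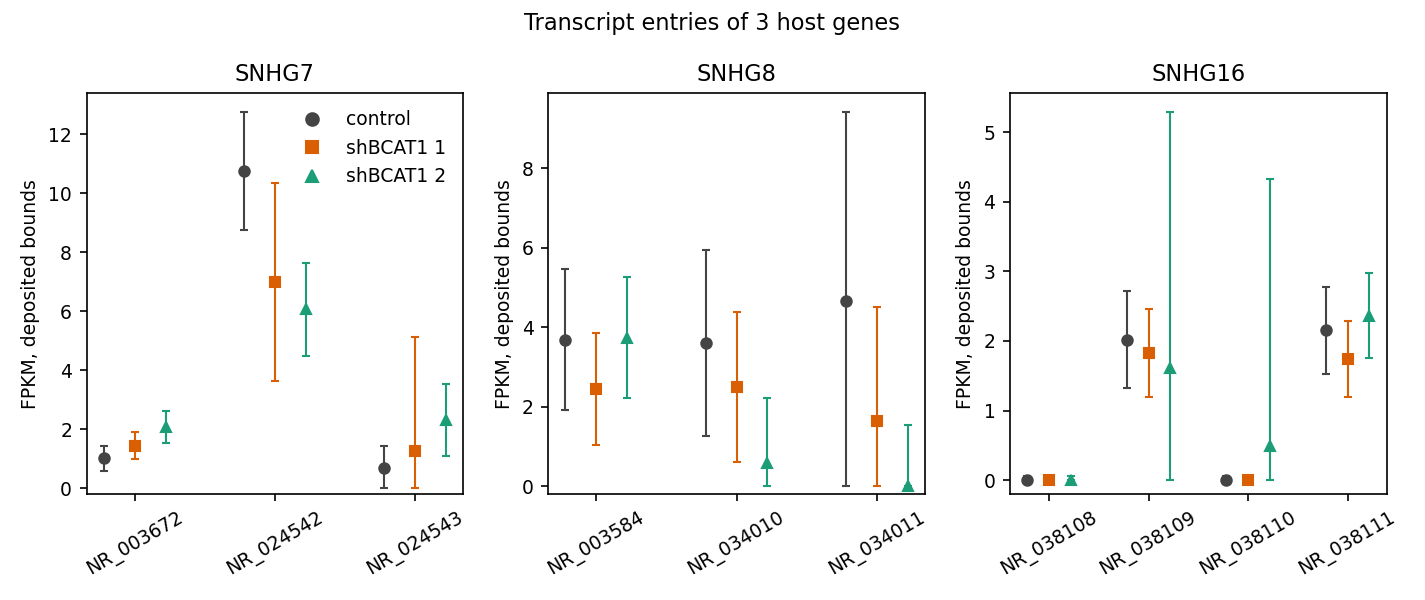
FPKM of each transcript entry of SNHG7, SNHG8 and SNHG16 in the 3 libraries, with the deposited confidence bounds, on linear axes. NR_024542 of SNHG7 is at 10.7 FPKM in the control and 6.06 in shBCAT1 2, while NR_003672 is at 1.004 and 2.06.

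In SNHG8 all 3 entries were lower in shBCAT1 1, and the shorter 2 were lower in shBCAT1 2. NR_003584 (672 bases) was at 3.69, 2.44 and 3.73 FPKM in the control, shBCAT1 1 and shBCAT1 2, so that shBCAT1 2 and the control were alike in value. NR_034010 (470 bases) was at 3.60, 2.49 and 0.577 FPKM, and NR_034011 (327 bases) at 4.65, 1.64 and near 0 (upper bound 1.54). Each entry had bounds overlapping its control range in either library, and those of NR_034011 reached from 0 to 9.41 in the control. The share of NR_003584 in the summed value was 30.9% in the control, 37.2% in shBCAT1 1 and 86.6% in shBCAT1 2.

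In SNHG16 the entries NR_038109 and NR_038111 held the value in the control, at 2.02 and 2.15 FPKM. They were at 1.82 and 1.74 in shBCAT1 1 and at 1.61 and 2.36 in shBCAT1 2. A further entry, NR_038110, was near 0 in the first 2 of these libraries and at 0.487 FPKM in shBCAT1 2, with bounds of 0 to 4.33. The wide bounds of the gene sum in shBCAT1 2 come from NR_038109 and NR_038110.

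The small nucleolar RNAs themselves were almost not seen. The deposited tables hold 33 entries of such RNAs inside the 10 loci, 26 of box C/D and 7 of H/ACA type, from 43 to 134 bases long. GAS5 holds 10 of them, SNHG1 8, SNHG12 4 and SNHG16 3. Outside every exon of the matched GENCODE transcripts lay 30 of the 33. The exceptions are SNORA17A, SNORA17B and SNORD25. In all 3 libraries 29 of the 33 were listed at 0. The other 4 were SNORD22 in SNHG1 (11.6 FPKM in the control, 11.3 in shBCAT1 1 and 0 in shBCAT1 2), SNORD50A in SNHG5 (84.2 in the control and 0 in both others), SNORA24 in SNHG8 (10.1 in the control and 0 in both others) and SNORA17B in SNHG7, whose status was not OK. Each of the nonzero values of SNORD22, SNORD50A and SNORA24 was 1 equivalent fragment. Of the 427 entries of small nucleolar RNAs deposited, 36 were above 0 in any library. The level of the guide RNAs was thus not measurable here, and nothing can be said of whether they followed their hosts.

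Non-coding host genes outside the set are given for comparison. Of a list of 20, 8 reached a mean of 1 FPKM, 7 were lower in both libraries labelled shBCAT1, 1 was higher in both, and 0 passed limma (adjusted p from 0.797 to 0.930). Of all genes tested 43.7% were lower and 25.6% higher in both. The median length of the 8 was 741 bases, and of genes from 500 to 1000 bases 76.9% were lower in both. SNHG29 was at 77.4 FPKM in the control, 61.8 in shBCAT1 1 and 54.2 in shBCAT1 2, above every member in each library. SNHG19 was at 13.7, 9.14 and 9.04 FPKM and SNHG3 at 3.17, 1.84 and 2.05. For SNHG3 the bounds in shBCAT1 1 lay apart from those of the control. ZFAS1 was at 18.5, 17.2 and 17.5 FPKM, DANCR at 5.81, 4.94 and 4.12, SNHG4 at 2.39, 1.68 and 1.36 and SNHG17 at 1.74, 0.971 and 1.42. SNHG9 stood above the control in both, at 4.11, 7.98 and 5.03 FPKM, on 3, 6 and 4 equivalent fragments. The median fitted log2(FPKM + 1) difference of the 8 was -0.37, with quantile normalization -0.24 (4 lower and 2 higher in both) and with the length trend removed -0.042 (1 lower and 2 higher in both).

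Ribosomal protein genes, which carry the TOP start and of which many host small nucleolar RNAs too, stood lower with few exceptions. All 78 were tested, 77 were lower in both libraries and 63 of them had bounds apart in each. Of all genes tested, 43.7% were lower in both and 4.17% lower with bounds apart in both. Of those with a mean of 5 FPKM or more, 64.4% were lower in both. The median fitted difference of the 78 on the log2(FPKM + 1) scale was -0.50, and 0 of them passed limma in either direction. With quantile normalization 45 were lower and 13 higher in both, at a median of -0.11, and with the length trend removed 59 and 2 of the 76 with a length, at -0.18. The median control level of the list was 112.2 FPKM, against 8.34 for the members, and bounds are narrower relative to the value at high levels. RPS29 was at 262, 150.1 and 122.6 FPKM and RPL41 at 347, 226 and 224. These genes share reads with many processed pseudogenes, which makes their values uncertain. Of 19 other messenger RNAs with a TOP start, 14 were lower and 0 higher in both, and 6 had bounds apart in both. Their median was -0.27, with 0.0053 after quantile normalization (7 lower and 5 higher in both) and -0.17 with the length trend removed (13 and 2). FAU, which encodes a ribosomal protein fused to a ubiquitin-like protein, was at 96.0, 69.9 and 61.2 FPKM.

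**Figure D4:**
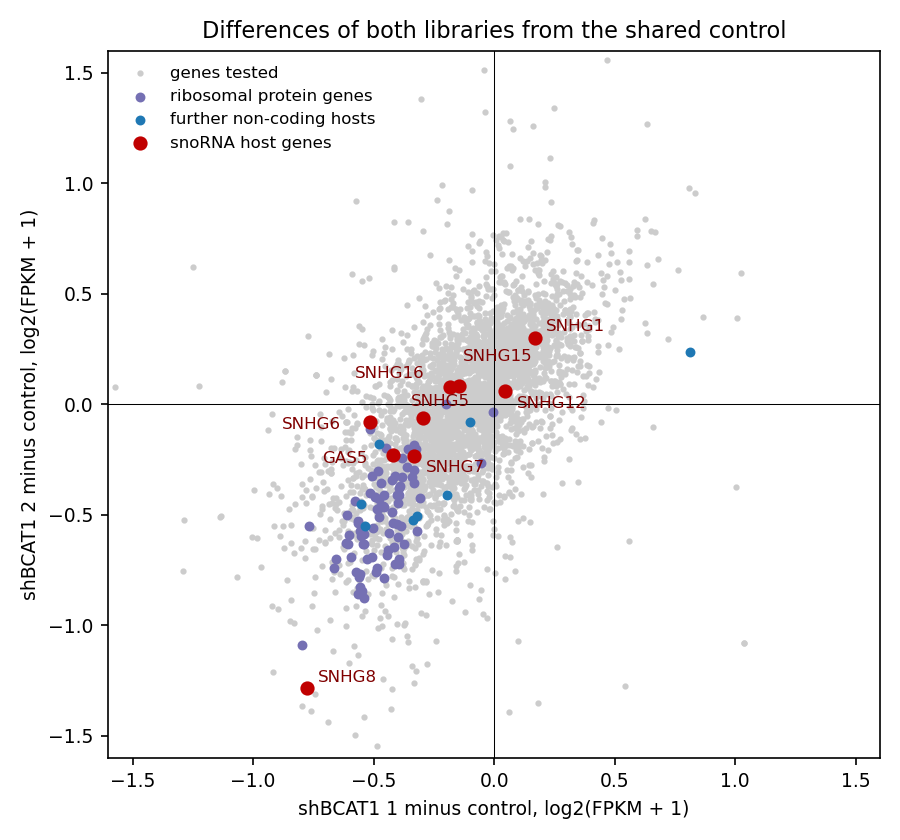
Difference of shBCAT1 1 (x axis) and of shBCAT1 2 (y axis) from the same control library on the log2(FPKM + 1) scale, with all genes tested in grey. Both axes share the control and end at 1.6 on either side, so SNHG25 (-4.29 on both) is outside. SNHG15 and SNHG16, whose fitted differences change sign with median-of-ratios scaling, lie near 0, and 77 of the 78 ribosomal protein genes (45 with quantile normalization) lie in the lower left, below 0 on both axes. Blue points are the 8 further non-coding host genes.

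The proteins that act on the products of host genes gave the following, beside 43.7% lower and 25.6% higher in both libraries among all genes tested. Of the 8 core proteins of small nucleolar ribonucleoproteins 6 were lower and 0 higher in both libraries. Their median fitted difference was -0.26 (log2(FPKM + 1)). With quantile normalization 5 were lower and 3 higher, and with the length trend removed 7 and 1. NOP10, an H/ACA core protein, was at 9.20 FPKM in the control, 6.40 in shBCAT1 1 and 3.30 in shBCAT1 2. NHP2, its partner in the same particle, was at 23.5, 17.4 and 16.1 with bounds apart in both. Of 4 measured assembly factors 1 was lower and 0 higher in both, PIH1D1 at 6.47, 5.25 and 6.11 FPKM. Of 9 measured factors of nonsense-mediated decay, the pathway that removes spliced host RNAs, 3 were lower and 4 higher in both, and the median was 0.015, while 1 was lower and 5 higher after removal of the length trend. MAGOH, of the exon junction complex, was at 5.88, 4.08 and 4.85 FPKM, and SMG5, which helps recruit decay enzymes, at 2.88, 3.15 and 4.03. Of 6 measured exosome and decay enzymes 3 were lower and 2 higher in both, EXOSC4 at 7.06, 5.31 and 3.52. Of 20 measured protein-coding host genes outside the ribosome 9 were lower and 4 higher in both, and these counts became 8 and 11 (quantile normalization) or 13 and 6 (length trend removed). Among them was TAF1D, a subunit of a factor for RNA polymerase I, at 3.60, 2.27 and 2.04 FPKM. In each of these lists 0 genes passed limma, and the smallest adjusted p of those named was 0.797.

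**Figure D5:**
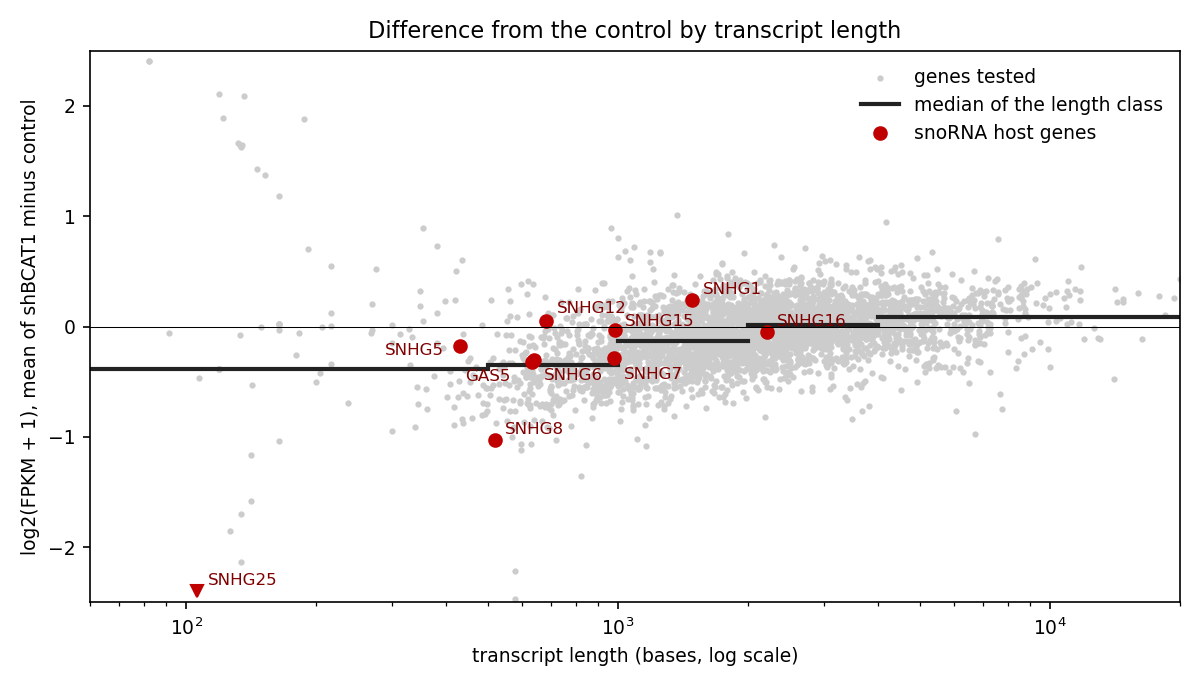
Fitted log2(FPKM + 1) difference (mean of the libraries labelled shBCAT1 minus control) against transcript length on a log axis, for the genes tested with a length, within -2.5 to 2.5. Bars are the medians of 5 length classes and red points the host genes, SNHG25 being drawn at the lower edge because its value is -4.29. Short classes lie lower, at -0.35 from 500 to 1000 bases against 0.08 from 4000 bases on.

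Transcript length moved with the differences. The 8 members with transcripts under 1000 bases include all 6 that were lower in both libraries. Of the 476 genes tested from 500 to 1000 bases, 76.9% were lower in both and the median log2(FPKM + 1) difference was -0.35 (quartiles -0.53 and -0.16), beside -0.29 for the 6 members in that class. Within it GAS5, SNHG6 and SNHG7 lay inside the quartiles, SNHG8 below them and SNHG12 and SNHG15 above them. SNHG1 (1487 bases), at 0.24, lay above the upper quartile of its class, 0.04. With the length trend removed from all genes, the members' median was 0.078, with SNHG7, SNHG8 and SNHG25 lower in both libraries and SNHG1, SNHG5, SNHG12 and SNHG15 higher in both. SNHG8 then stood at -0.59. Of all genes, 34.7% were lower and 34.8% higher in both in that setting. The part of transcript length in these differences was not tested.

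GAS5 was the most abundant member by its mean over the libraries. The 5 genes nearest to it in the pair of log2(FPKM + 1) differences, among 1041 others with a mean of 5 FPKM or more, were FKBP1A, LGALS1, DAZAP1, EIF3I and UQCRC1, at distances of 0.00583 to 0.0245. FKBP1A was at 34.3, 25.3 and 29.1 FPKM and EIF3I, which encodes a subunit of an initiation factor, at 19.6, 14.6 and 16.4. Within 0.05 of GAS5 lay 13 genes, and the likeness rests on 3 libraries.

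The strand of the libraries is not given in the sources used here, so reads of a member and of an overlapping gene on the other strand cannot be told apart. The overlaps below are counted over whole deposited loci, introns included. SNHG7 shares 125 bases with DIPK1B (0.343, 0.515 and 0.573 FPKM in the control, shBCAT1 1 and shBCAT1 2). SNHG6 shares 119 bases with MCMDC2 (at most 0.0136 FPKM). GAS5 shares 41 bases with GAS5-AS1, which was listed at 0, 0 and 0.372 FPKM. SNHG12 shares 8 bases with TRNAU1AP. Each of these partners had a lower value than its member in every library.

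Without shBCAT1 1, 6 of the 10 members were lower than the control, and without shBCAT1 2 it was 8. Of 8 lung epithelial markers 5 were at 1 FPKM or more in every library, with NKX2-1 and SFTPB at 0.101 FPKM or less. Fibroblast markers summed to between 0.105 and 0.259 FPKM in each library, and endothelial markers to between 0.120 and 0.221. Of 4 leukocyte markers only CD68 reached 1 FPKM, and PTPRC was listed at 0 throughout. FPKM summed to 53898 in the control, 44313 in shBCAT1 1 and 46145 in shBCAT1 2.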

How the data were processed

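RNA of 1 control library and 2 libraries labelled shBCAT1 was analysed. The authors deposited FPKM with confidence bounds per RefSeq transcript and locus, each library on its own, per the file headers. Trim Galore, TopHat, Cufflinks and hg38 are named per the submitters' processing notes. Their versions and the annotation were not stated there. Read totals are unknown.

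Each table held 56882 entries. Accessions were named with the RefSeq gene table (49281 of 50337) or GENCODE release 29 (645), and 411 stood for themselves. FPKM was summed per gene. For a gene with several entries the squared SDs of the entries were added as if independent, which sets its bounds. The SD of a value was taken from its upper bound (2 SDs), and the square of value over SD is the equivalent fragments. Genes with a status other than OK (341) or a mean under 1 FPKM were left out. On log2(FPKM + 1), limma 3.58.1 under R 4.3.3 (trended variance, Benjamini-Hochberg adjusted, two-sided) compared the groups over 3889 genes (residual degrees of freedom 1, prior 2.99), with the control assumed to vary like the other libraries. The fit was tested on simulated data. Lengths are those of matched GENCODE transcripts, weighted by FPKM (3800 genes).

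Members and lists were chosen with earlier results of these data known. The genes named are all members with their entries, the small RNAs in their loci, the further non-coding hosts at 1 FPKM, up to 4 genes per other list whose smaller difference of both, if of like sign, was largest, the 5 genes nearest to GAS5, and BCAT1. A selection of these is printed. Alternatives were other pseudocounts (0.1 and 5), minimum means, scalings, ways of summing, removal of the length trend (loess, span 0.5) and leaving out each library labelled shBCAT1. A minimum of 10 equivalent fragments and leaving out SNHG25 were added after seeing the data. Tables and plots were made with Python 3.11.15, pandas 2.3.3, numpy 2.4.6 and matplotlib 3.10.9.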

Additional observations from a re-analysis of the deposited data

How the results depend on the processing

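The count of host genes lower in both libraries (6) was 3 with quantile normalization and 3 with the length trend removed, and 5 or 6 under the other fitted alternatives. Their median log2(FPKM + 1) difference was -0.041 and 0.078 in those settings, against -0.23. The share of all genes lower in both was 32.2% and 34.7% there, against 43.7%. Leaving out 1 library labelled shBCAT1 gave 6 lower members and a median of -0.073 (without replicate 1) or 8 and -0.31 (without replicate 2), as values with no test, and no limma fit is possible with 1 library a group. Without SNHG25 the count was 5 of 9 and the median -0.18. Over all genes, limma's 14 lower calls became 7 with the largest entry of a gene, 8 at a minimum mean of 5 FPKM, 0 with no filter and 0 at a minimum of 10 equivalent fragments. The 0 higher calls became 1 with a pseudocount of 0.1 and 2 with the length trend removed. The minimum levels leave fewer genes to test by construction, and for the other settings the cause was not tested. No paired analysis was possible because the control has 1 library and no replicate number in its label.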
